A study of Mus musculus with 30 samples.

Results

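The diabetic kidney was compared between mice lacking Camk2d and mice carrying it, with 4 libraries of each genotype. The libraries were selected by their labels alone, as the KO diabetic kidneys K587, K588, K591 and K596 and the WT diabetic kidneys K597, K645, K844 and K877, and they are 8 of the 30 libraries of the series. All 8 animals were homozygous for the db allele of the leptin receptor gene, written Lepr(db/db), and were 16 weeks old. They differed in the knockout of Camk2d, which was global, so that a difference in the kidney can start in any organ. The exons deleted, the strain, litter and hour of collection of each animal were not stated in the labels. The series also holds 8 kidneys of Lepr(+/+) animals, 4 of them KO and 4 WT, and 14 retinas, which serve here for levels and for side by side values. Whole organs were flash frozen, RNA was extracted with Trizol, and complementary DNA was sequenced on a BGISeq-500. The labels give each library its own animal number but no batch, so p-values measure the spread between these animals under whatever else they share. Values listed for single libraries follow the order of the libraries just given, and differences are KO minus WT.

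Camk2d is the gene of the delta isoform of CaMKII, the calcium/calmodulin-dependent protein kinase II, a multisubunit serine/threonine kinase that is switched on by calcium-loaded calmodulin and can hold its activity by phosphorylating itself. The 4 isoforms alpha, beta, gamma and delta come from separate genes, and delta and gamma are the ones widely made outside the nervous system. In liver, CaMKII is known to promote glucose output, in part through the transcription factor Foxo1. Mice without a working leptin receptor overeat, become obese and diabetic, and develop early features of diabetic nephropathy. The proximal tubule takes back filtered glucose, amino acids, phosphate and bicarbonate, and it is the kidney's site of gluconeogenesis.

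The 8 libraries held 21270597 to 22643055 estimated counts each. Markers of kidney segments were present in all of them: Slc34a1, the phosphate transporter of the proximal tubule, was at 1077 to 2111 TPM in KO and 2678 to 3623 TPM in WT, Umod of the thick ascending limb was at 152 to 675 TPM in KO and 541 to 688 TPM in WT, Slc12a3 of the distal convoluted tubule was at 165 to 289 TPM in KO and 216 to 355 TPM in WT and Aqp2 of the collecting duct was at 55.2 to 232 TPM in KO and 92.5 to 147 TPM in WT. Mitochondrially encoded genes took 31.9, 31.5, 45.4 and 22.2% of the counts in KO, against 24.5 to 26.1% in WT. The means were 32.8 ± 9.54% in KO and 25.0 ± 0.738% in WT (SD, n = 4 each), a difference of 7.73 points that did not pass an exact two-sided permutation test (p = 0.143, where the smallest p possible is 0.0286). By Xist and Y-linked transcripts, each genotype had 2 females (K587, K588, K844 and K877) and 2 males. K596 stood apart from the other KO kidneys in the genes of tubular metabolism and transport, where it lay nearest to WT, and K844 lay nearest to KO among the WT kidneys for several immune genes. Rod photoreceptor transcripts were found at low levels in KO: Sag, rod arrestin, picked after its values were seen, was at 3.89, 4.32, 4.17 and 1.6 CPM in KO, against 0.352 to 1.14 CPM in WT. Prph2, a disc protein of photoreceptors picked likewise, was at 0, 0.771, 1.15 and 0.735 CPM in KO and at 0 in all 4 WT kidneys. In the non-diabetic kidneys Sag ranged over 0.861 to 2.69 CPM, which takes in K596, and Prph2 over 0 to 0.0491 CPM. Gnat1, another rod gene, overlapped as well, at 1.64 to 6.16 CPM in diabetic KO and 0.491 to 3.58 CPM in non-diabetic kidneys. The part that carried-over retinal RNA has in these values was not tested.

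The targeted transcript was nearly absent from every KO library. Camk2d had 0.346, 0.557, 0.544 and 0.0864 CPM in KO (CPM, counts relative to the library total, here after TMM scaling), against 19.8, 19.8, 16.2 and 19.1 CPM in WT. These values rest on 8, 13, 9 and 2 counts in KO and 440, 419, 370 and 433 counts in WT. The log2 difference was −5.62 ± 0.32, adjusted p = 4.20e-08 (edgeR quasi-likelihood test, Benjamini-Hochberg adjustment over all 18177 genes tested; ± is the standard error throughout), and all 4 KO libraries lay far under all 4 WT libraries. Camk2g, the gamma isoform, had the highest mean TPM of the 4 isoform genes over the 8 libraries, 4 of which lack Camk2d. That mean does not rank the isoforms in WT kidney. Camk2g had 24.9, 26, 15.7 and 17.3 CPM in KO and 18.6, 17.1, 17.1 and 17.8 CPM in WT. K587 and K588 lay above all WT kidneys while K591 lay under them and K596 among them, and the difference of 0.25 ± 0.15, adjusted p = 0.222 did not pass. Camk2b, the beta isoform best known from neurons, had 5.84, 6.12, 5.38 and 3.85 CPM in KO, against 2.25, 0.0472, 0.0437 and 0.044 CPM in WT. All 4 KO kidneys lay above all WT kidneys, of which K597 was the highest and the other three held 1 count each. It rose, with a log2 difference of 3.14 ± 0.85, adjusted p = 0.0254, but without K587, K588, K591, K645 or K877 the call was lost, at log2 differences of 2.75 to 3.14, and it was not called with the mitochondrial share as a covariate (3.16, adjusted p = 0.0868) or in a fit of the 8 diabetic libraries alone (3.19, adjusted p = 0.0563). In non-diabetic kidneys Camk2b ranged over 2.8 to 3.53 CPM in KO and 0.164 to 1.01 CPM in WT, without overlap, and did not pass there (2.87 ± 0.87, adjusted p = 0.342). Camk2a, the alpha isoform, had 1.47, 1.37, 0.906 and 0.259 CPM in KO and 0.718, 0.519, 0.742 and 0.704 CPM in WT, groups that overlapped (0.58 ± 0.41, adjusted p = 0.30; without K596 it was called, at 0.92). Summed over the 4 genes, CaMKII transcripts came to 32.6, 34.1, 22.5 and 21.5 CPM in KO and 41.4, 37.4, 34.1 and 37.6 CPM in WT, so that K588 reached the lowest WT kidney. Lepr and Leprot, a partner gene at the same locus, differed by 0.02 and −0.24 on the log2 scale, and neither passed (adjusted p = 0.969 and 0.285).

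**Figure D1:**
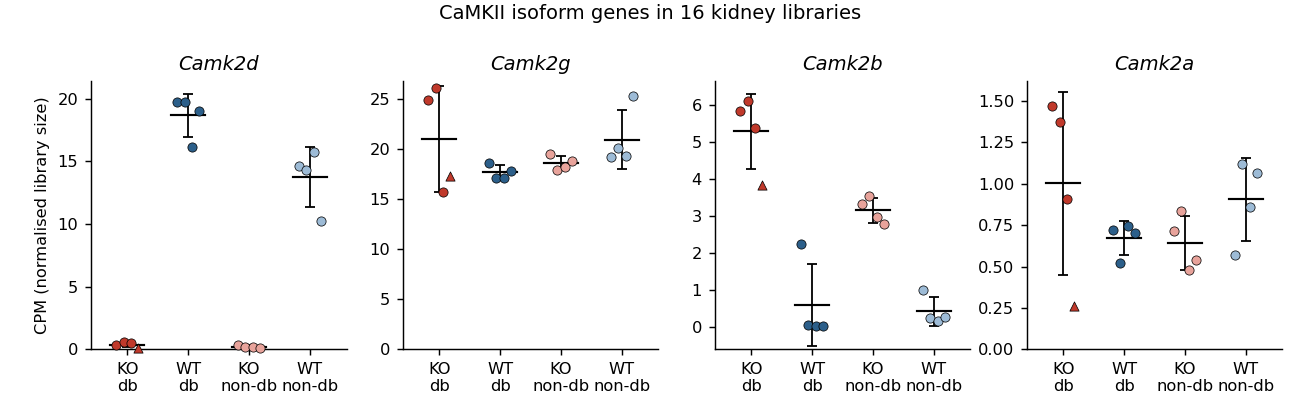
CPM (linear axes) of the 4 CaMKII genes in the 16 kidney libraries, with KO left of WT for the diabetic (db) and then the non-diabetic groups, 1 point per library (K596 is the triangle), and the mean ± SD of each group of 4. Camk2d separates the genotypes without overlap, at 0.0864 to 0.557 CPM in KO and 16.2 to 19.8 CPM in WT diabetic kidneys, while Camk2g lies between 15.7 and 26 CPM in these 8.

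Across the genome, 3573 of 18177 genes tested differed between KO and WT diabetic kidney (19.7%), of which 1939 rose (10.7%) and 1634 fell (8.99%). Rises were larger: 1334 of the 1939 were of at least 1 log2 unit, against 292 of the 1634 falls. The size of this count depended on single libraries. It was 7730 without K596 and 4722 without K844, but 718 to 1301 when any other library of the 8 was left out. Calls that held with the same sign in all 16 fits that each left out 1 kidney library are termed stable here; there were 579 (3.19%), 401 of them higher (2.21%) and 178 lower (0.979%). The 4 and 4 libraries did not overlap for 2780 genes, 15.3% of those tested, and 1775 of these were called. The split of directions moved with the measure and with the offset added to TPM. On the deposited TPM values in limma on log2(TPM + 1), 173 genes were higher and 243 lower. The median of all genes was shifted to −0.107 there, against 0.035 in the count fit, and 250 of the 579 stable genes were called there too. In limma on log2(TPM + 0.1), 292 genes were higher and 290 lower. With the mitochondrial share as a covariate 347 genes were higher and 155 lower, and 421 of the stable genes were called; in the fit of the 8 diabetic libraries 540 were, and with sex as a covariate all 579. For most gene lists, the count is therefore followed by the lowest and highest count with 1 of the 8 libraries left out. After these come the counts on the log2(TPM + 1) scale, termed the TPM scale, with the mitochondrial covariate and in the fit of the 8 libraries. The offset of 1 makes log2 differences smaller for genes at low TPM.

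**Figure D2:**
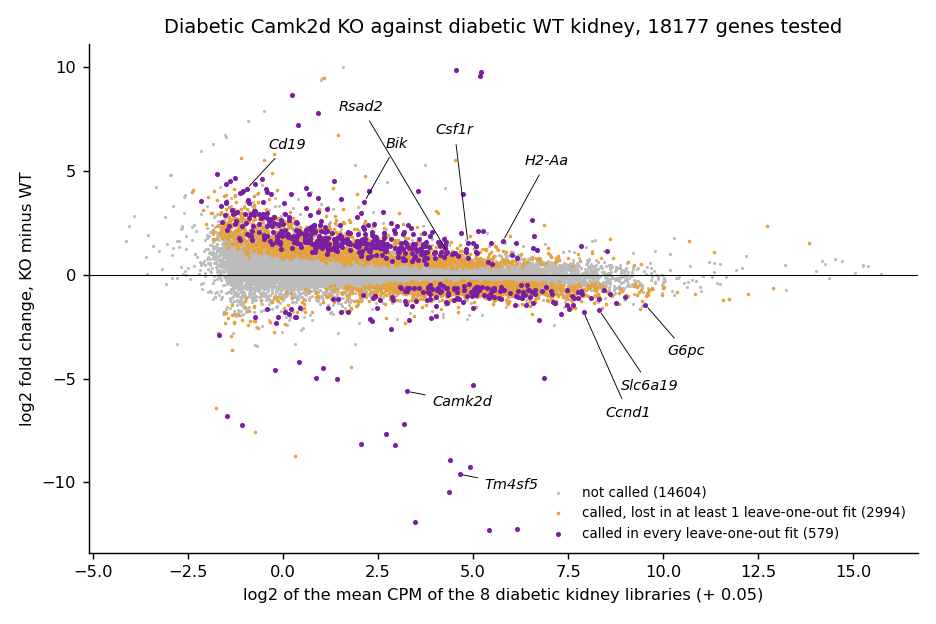
Log2 difference of each gene tested (KO minus WT diabetic kidney) against its mean level in log2 CPM, with called and stable genes coloured and selected genes named. Rises of at least 1 log2 unit outnumber falls of that size (1334 against 292), and the lowest points are transcripts close to 0 in KO, such as Camk2d at −5.62 and Tm4sf5 at −9.60.

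Genes of glucose production fell in the KO kidneys. Of 18 gluconeogenesis enzymes tested, 11 fell and none rose, 3 of the falls were stable, and the median log2 difference was −0.77 against 0.035 over all genes tested. The number that fell was 3 without K587, K588 or K645 and 12 without K596 or K844, 4 on the TPM scale, 2 with the mitochondrial covariate and 5 in the fit of 8. G6pc, the catalytic subunit of glucose-6-phosphatase that releases free glucose, had 221, 287, 349 and 729 CPM in the KO diabetic kidneys, against 1054, 969, 1081 and 1236 CPM in the WT diabetic kidneys. K596 was the highest KO kidney and the groups did not overlap (−1.45 ± 0.33, adjusted p = 0.0129). Slc37a4, which carries glucose-6-phosphate to that enzyme, had 142, 173, 119.7 and 264 CPM in KO, against 351, 373, 404 and 387 CPM in WT (−1.12 ± 0.24, adjusted p = 0.0106). Glud1, which feeds glutamate carbon into the route, had 258, 302, 279 and 471 CPM in KO, against 723, 704, 563 and 808 CPM in WT (−1.1 ± 0.20, adjusted p = 0.0052). For both, K596 again lay between the other KO kidneys and WT. Pck1, the enzyme that commits oxaloacetate to glucose and the most abundant member of the list, had 1371, 1818, 1801 and 3349.7 CPM in KO, against 4126, 4649.9, 4622 and 5558 CPM in WT. Its groups did not overlap, yet the call was less firm: the log2 difference was −1.18 ± 0.33, adjusted p = 0.0277, and without K587, K588, K591, K597, K645 or K877 the call was lost, at log2 differences of −1.23 to −1.03. The summed level of the list was 4466, 5098, 5476 and 9827 CPM in KO, against 11706, 12658, 11679 and 13414 CPM in WT.

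The G6pc promoter is shown because its upstream sequence carries elements described for insulin, cyclic AMP and HNF1 regulation. The window of 300 bases (RefSeq, GRCm38.p6, chr11:101367466-101367765, plus strand) runs from 250 bases before the start to 50 after it.
G6pc: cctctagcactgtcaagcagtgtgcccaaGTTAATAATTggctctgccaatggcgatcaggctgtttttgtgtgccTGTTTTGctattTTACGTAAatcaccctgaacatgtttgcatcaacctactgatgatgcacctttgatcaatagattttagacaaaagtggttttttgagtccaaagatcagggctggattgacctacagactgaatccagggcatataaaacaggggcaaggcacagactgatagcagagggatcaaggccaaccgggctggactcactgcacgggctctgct
Capitals mark, from the 5′ end, a match to an HNF1 site (GTTAAT, any base, then ATT) beginning 221 bases before the start, the insulin response sequence TGTTTTG at 174 and the cyclic AMP response element variant TTACGTAA at 162; none overlap. Both strands were searched in all 32851 promoter windows of the table, where these motifs occurred in 0.399%, 6.28% and 0.119% of windows. Among the 16 gluconeogenesis genes with a window, 3 held the insulin response sequence (G6pc, Pck2 and Fbp2), of which G6pc was called. A match describes letters in this window and not a bound site.

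Part of the sugar transporter list followed in the same direction. Of 17 genes tested on this list, 5 fell and none rose, 2 stably, with a median of −0.51. The list also holds carriers of other substrates, such as Slc5a12, so Slc2a5 was its 1 stable fall in a sugar transporter. Falls were 2 without K587, K588, K591, K597 or K645 and 8 without K596, 4 on the TPM scale, 2 with the mitochondrial covariate and 4 in the fit of 8. Slc2a5, the fructose transporter GLUT5, had 49, 66.9, 61.1 and 139.6 CPM in KO, against 177, 188, 224 and 226 CPM in WT, without overlap (−1.36 ± 0.28, adjusted p = 0.00963). Slc5a12, a sodium-coupled transporter of lactate in the proximal tubule, had 33.8, 37.3, 54.4 and 143 CPM in KO, against 343, 335, 126 and 206 CPM in WT (−1.91 ± 0.44, adjusted p = 0.014). Here K596 lay above the lowest WT kidney, K844, so the groups overlapped. Slc5a2, the SGLT2 glucose transporter that retrieves most filtered glucose, had 344, 335, 353 and 384 CPM in KO, against 649, 772, 468 and 558 CPM in WT, without overlap (−0.79 ± 0.20, adjusted p = 0.0228), and without K587, K588, K591, K597 or K645 the call was lost, at log2 differences of −0.79 to −0.67. Of 10 genes tested on the fructose and polyol list, 3 fell. Falls were 1 without any single library other than K596 and 6 without K596, 2 on the TPM scale, 1 with the mitochondrial covariate and 1 in the fit of 8. The 1 stable fall was Glo1, the glyoxalase that clears methylglyoxal, which is on the list but is not an enzyme of that route. It had 71.7, 69, 74 and 97.4 CPM in KO, against 152, 156, 250.5 and 223 CPM in WT (−1.32 ± 0.18, adjusted p = 0.000806). The same gene differed by −1.38 ± 0.18, adjusted p = 0.000812 between KO and WT kidneys of non-diabetic animals. In glycolysis 4 of 19 genes fell and 1 rose, none stably. Falls were 0 without K587, K588, K591, K597, K645 or K877 and 9 without K596, 0 on the TPM scale, 0 with the mitochondrial covariate and 1 in the fit of 8.

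Part of the proximal tubule markers and transporters fell as well. Of 25 proximal tubule markers tested, 7 fell and 1 rose, with 1 stable fall. Falls were 1 without K587, K588 or K645 and 13 without K596, 4 on the TPM scale, 2 with the mitochondrial covariate and 5 in the fit of 8. Slc34a1, the main renal phosphate transporter, had 2631, 3067, 3431 and 4141 CPM in KO, against 6477, 7263, 5417 and 5872 CPM in WT. The groups did not overlap (−0.92 ± 0.23, adjusted p = 0.0192), and without K587, K588, K597 or K645 the call was lost, at log2 differences of −0.88 to −0.82. Kap, the androgen-regulated kidney protein, was the marker that rose, at 13748, 2070.2, 16442 and 13364 CPM in KO, against 3551, 3797, 1206 and 577 CPM in WT (2.32 ± 0.69, adjusted p = 0.0339); K588 lay among the WT kidneys, and without K587, K591, K597, K645, K844 or K877 the call was lost, at log2 differences of 1.99 to 2.67. Among 22 amino acid transporters, 6 fell and none rose. Falls were 1 without K587, K588, K597 or K645 and 10 without K596, 2 on the TPM scale, 1 with the mitochondrial covariate and 4 in the fit of 8. Slc6a19, the B0AT1 carrier of neutral amino acids, had 101, 108, 110.0 and 278 CPM in KO, against 633, 649, 250.2 and 425 CPM in WT (−1.71 ± 0.36, adjusted p = 0.00959). K596 lay above K844, and the other three KO kidneys lay under all WT kidneys. Organic ion transporters went both ways, with 3 rises and 2 falls among 29, shares under or near those of all genes. Their 1 stable call, Slc22a5, the carnitine transporter OCTN2, had 121, 126, 75.9 and 190.3 CPM in KO, against 268, 300.4, 218 and 254 CPM in WT without overlap (−1.02 ± 0.21, adjusted p = 0.00879). In bulk kidney, fewer cells of a type and less RNA per cell cannot be told apart, here or in the cell type groups that follow.

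Calls in the other tubule segments differed between lists. None of 15 thick ascending limb genes passed; Umod, uromodulin, had 757, 579, 598 and 1562 CPM in KO, against 1583, 1537, 1364 and 1620.3 CPM in WT (−0.80 ± 0.43, adjusted p = 0.168), and without K596 it was called at −1.22. In the distal convoluted and connecting tubule 3 of 18 genes fell, none stably. Falls were 0 without K877 and 5 without K596. They were 0 on the TPM scale, 0 with the mitochondrial covariate and 3 in the fit of 8. In intercalated cells, which secrete acid or base, 6 of 18 fell, 1 stably. Falls were 1 without K587, K588, K591, K597, K645 or K877 and 6 without K596, 1 on the TPM scale, 1 with the mitochondrial covariate and 3 in the fit of 8. That gene, Atp6v0a4, a subunit of the kidney's proton pump, had 74.6, 78.8, 72.2 and 197 CPM in KO, against 314, 356, 193 and 299.9 CPM in WT (−1.46 ± 0.30, adjusted p = 0.00917), with K596 just above K844. Podocyte genes numbered 1 rise and 1 fall among 19, and principal cell genes 1 and 1 among 18, none of them stable.

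Part of the genes of oxidative metabolism fell. Of 23 citric acid cycle genes, 9 fell and none rose, no call was stable, and all 23 fitted differences were negative, with a median of −0.54. Falls were 0 without K587, K588, K591, K597, K645 or K877 and 19 without K596, 1 on the TPM scale, 0 with the mitochondrial covariate and 0 in the fit of 8. Of 31 fatty acid oxidation and PPAR alpha target genes, 7 fell (otherwise 1 without K587, K588, K597 or K645 and 14 without K596, 0 on the TPM scale, 1 with the mitochondrial covariate and 3 in the fit of 8). The stable member was Eci1, an isomerase for unsaturated fatty acids in mitochondria, with 81.2, 97.2, 72.4 and 83 CPM in KO, against 138, 108, 169 and 153 CPM in WT and no overlap (−0.77 ± 0.16, adjusted p = 0.00879). Among nuclear-encoded respiratory chain subunits 10 of 62 fell and 1 rose (falls: 0 without K587, K588, K591, K597, K645 or K877 and 12 without K596, 0 on the TPM scale, 0 with the mitochondrial covariate and 0 in the fit of 8), none stably, with a median of 0.08. The lipid uptake list gave 2 falls and 1 rise among 25, under the shares of all genes. Its stable gene Fabp3, a fatty acid binding protein, had 39.2, 40, 49.1 and 59.5 CPM in KO, against 96, 113, 89.9 and 91.4 CPM in WT (−1.06 ± 0.19, adjusted p = 0.00498), without overlap.

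Signals that adjust metabolism to feeding, hormones and time of day changed at single genes. In insulin and IGF signalling 6 of 26 genes fell and 2 rose. Falls were 2 without K587, K588, K597 or K645 and 10 without K596, 3 on the TPM scale, 1 with the mitochondrial covariate and 2 in the fit of 8. Foxo3, a transcription factor that insulin signalling keeps out of the nucleus, had 48.7, 51.2, 29.9 and 68.6 CPM in KO, against 121, 111, 83.6 and 112 CPM in WT (−1.11 ± 0.25, adjusted p = 0.0137). Pdk1, the kinase that inhibits pyruvate dehydrogenase, had 26.3, 32.8, 15.8 and 33.9 CPM in KO, against 54.4, 49.9, 56.6 and 72.2 CPM in WT (−1.1 ± 0.22, adjusted p = 0.0072). Igf1, insulin-like growth factor 1, went the other way, with 11.5, 8.95, 4.41 and 5.32 CPM in KO, against 2.56, 2.83, 3.32 and 2.86 CPM in WT (1.38 ± 0.30, adjusted p = 0.0119). None of these overlapped between genotypes, and K591 was the lowest KO kidney for all 3. In the circadian clock list 6 of 19 genes fell and 1 rose. Falls were 2 without K587, K588, K597 or K645 and 8 without K596, 4 on the TPM scale, 2 with the mitochondrial covariate and 3 in the fit of 8. Cry2, a repressor of the clock loop, had 12.5, 15.1, 7.31 and 19.3 CPM in KO, against 37.6, 33, 23.6 and 32.4 CPM in WT (−1.22 ± 0.24, adjusted p = 0.00664), without overlap. Since the hour of collection is not given, time of day and genotype cannot be told apart for this list. In the glucocorticoid response list 7 of 21 fell and none rose, with no stable call. Falls were 0 without K877 and 8 without K596, 3 on the TPM scale, 1 with the mitochondrial covariate and 6 in the fit of 8.

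Single genes of the cell cycle and of the endoplasmic reticulum separated the genotypes. Of 30 cell cycle genes 6 fell, 3 stably, and 1 rose. Falls were 3 without K587, K588 or K597 and 8 without K596, 4 on the TPM scale, 3 with the mitochondrial covariate and 5 in the fit of 8. Ccnd1, cyclin D1, which opens the way into DNA replication, had 66.5, 79.6, 79.2 and 203 CPM in KO, against 442, 494, 251 and 303 CPM in WT. K596 was the highest KO kidney and lay under K844, the lowest of WT (−1.8 ± 0.33, adjusted p = 0.0053). Mcm4, a subunit of the replicative helicase, had 3.24, 3.13, 2.96 and 4.62 CPM in KO, against 8.85, 6.75, 5.89 and 6.6 CPM in WT (−1.01 ± 0.19, adjusted p = 0.00624), and Rrm2, a subunit of ribonucleotide reductase, had 1.6, 1.46, 1.81 and 1.73 CPM in KO, against 2.6, 3.82, 3.71 and 4.62 CPM in WT (−1.16 ± 0.26, adjusted p = 0.0126). Neither overlapped. In the unfolded protein response 4 of 31 genes fell and 2 rose, shares near those of all genes. Herpud1, which helps to dispose of misfolded proteins, had 151, 160.3, 159 and 320.0 CPM in KO, against 441, 462, 403 and 455 CPM in WT (−1.16 ± 0.23, adjusted p = 0.0075), whereas Sdf2l1, a chaperone partner in the endoplasmic reticulum, had 9.43, 8.09, 7.37 and 7.61 CPM in KO, against 3.14, 2.78, 3.58 and 3.48 CPM in WT (1.32 ± 0.21, adjusted p = 0.00224). Neither overlapped between genotypes.

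Macrophage genes rose in the KO kidneys. The list of neutrophils and mast cells did not follow. With 3 of its 15 genes tested, it gave 1 rise and 1 fall, neither stable, and its mean summed level was lower in KO. Of 26 macrophage genes tested, 19 rose and 1 fell, 14 of the rises stably, with a median of 1.35, or 0.61 on the TPM scale. Rises were 14 without K588, K597, K645 or K877 and 20 without K596, 6 on the TPM scale, 17 with the mitochondrial covariate and 17 in the fit of 8. Csf1r, the receptor for the growth factor that macrophages live on, had 67.8, 33.7, 39.9 and 31.4 CPM in KO, against 14, 14.4, 18 and 12.9 CPM in WT (1.54 ± 0.25, adjusted p = 0.00255). Ccr2, the chemokine receptor of recruited monocytes, had 3.5, 2.4, 4.05 and 4.11 CPM in KO, against 0.539, 1.13, 0.96 and 0.616 CPM in WT (2.11 ± 0.28, adjusted p = 0.000838), and Fcer1g, a signalling chain of Fc receptors, had 11.7, 10.8, 17 and 9.55 CPM in KO, against 2.25, 2.55, 5.15 and 2.11 CPM in WT (2.02 ± 0.31, adjusted p = 0.00207). The 4 KO kidneys lay above the 4 WT kidneys for each, and K844 was the highest WT kidney for Csf1r and Fcer1g. Apoe, the most abundant member by TPM, ranged over 267 to 1052 CPM in KO and 272 to 716 CPM in WT and did not pass (adjusted p = 0.927). The fall was Alox15, a lipoxygenase of resident peritoneal macrophages in mice, which had 0.0865, 0.128, 0.0604 and 0.216 CPM in KO, against 3.5, 2.97, 1.62 and 1.72 CPM in WT (−4.21 ± 0.68, adjusted p = 0.00265).

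Lymphocyte genes rose in KO and were very low in WT. Of 28 genes of T, B and NK cells tested, out of 38 on the list, 19 rose and none fell, 9 of them stably, with a median of 1.87, or 0.54 on the TPM scale. Rises were 9 without K597 and 22 without K844, 3 on the TPM scale, 8 with the mitochondrial covariate and 13 in the fit of 8. Cd79a, part of the B cell receptor, had 1.25, 0.642, 2.3 and 0.605 CPM in KO, against 0.0898, 0.0472, 0.0873 and 0.176 CPM in WT (3.48 ± 0.51, adjusted p = 0.0015). Ighd, the heavy chain of IgD on naive B cells, had 1.38, 2.23, 3.87 and 0.908 CPM in KO, against 0.135, 0.142, 0.218 and 0.044 CPM in WT (3.89 ± 0.57, adjusted p = 0.0015). Coro1a, an actin regulator of lymphocytes and other white cells, had 10.2, 10.5, 5.86 and 6.92 CPM in KO, against 2.16, 1.7, 3.19 and 2.46 CPM in WT (1.81 ± 0.28, adjusted p = 0.00208). The groups did not overlap for these genes; the WT values of Cd79a and Ighd rest on only a few counts per library. The summed list stood at 82.6, 69.3, 76 and 58.1 CPM in KO and 18.2, 17.4, 33.3 and 19.6 CPM in WT. Blood genes were examined beside it: of 10 erythroid genes none rose and 1 fell, with a median of 1.03, and the summed erythroid level was 2545, 927, 1171 and 813 CPM in KO and 724, 221, 761 and 365 CPM in WT. The part of blood left in the organs was not tested.

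Chemokines and complement followed. Of 31 chemokine and receptor genes tested, out of 47 on the list, 15 rose and none fell, 11 stably. Rises were 11 without K587 or K597 and 16 without K596, 4 on the TPM scale, 10 with the mitochondrial covariate and 9 in the fit of 8. Cxcl16, a membrane-bound chemokine for T cells, had 32.5, 37.4, 50.8 and 36.5 CPM in KO, against 16.5, 15.1, 18 and 16.7 CPM in WT (1.24 ± 0.16, adjusted p = 0.000513), the smallest p of the list. Ccl5, a chemokine of activated T cells and macrophages, had 1.51, 1.67, 1.69 and 2.55 CPM in KO, against 0.269, 0.283, 0.262 and 0.264 CPM in WT (2.76 ± 0.40, adjusted p = 0.00148). Both separated the genotypes, and K596 was the lowest KO kidney for neither. Of 25 complement genes 8 rose, 7 stably, and 1 fell. Rises were 7 without K587, K588, K591, K597, K645 or K877 and 11 without K596, 2 on the TPM scale, 7 with the mitochondrial covariate and 8 in the fit of 8. C1qa, C1qb and C1qc, the chains of the recognition molecule C1q that tissue macrophages make, differed by 1.72, 1.56 and 1.35 on the log2 scale (adjusted p = 0.00484, 0.00463 and 0.0069), and C1qa had 22, 19.6, 16.6 and 14.8 CPM in KO, against 4.0, 4.81, 8.99 and 4.31 CPM in WT. Cfb, the most abundant complement gene here, did not pass (−0.52 ± 0.23, adjusted p = 0.103).

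Part of the antigen presentation genes rose in KO. Of 16 MHC class II genes tested, 11 rose and none fell, 4 stably, with a median of 1.22, or 0.45 on the TPM scale. Rises were 5 without K587 or K645 and 11 without K596 or K844, 3 on the TPM scale, 5 with the mitochondrial covariate and 7 in the fit of 8. H2-Aa, the alpha chain of the I-A molecule, had 84.2, 78.2, 98 and 72.3 CPM in KO, against 21.8, 19.8, 45.8 and 20.6 CPM in WT (1.62 ± 0.29, adjusted p = 0.00502), and H2-Ob, a chain of the peptide-loading regulator H2-O, had 1.34, 1.93, 2.42 and 1.38 CPM in KO, against 0.135, 0.189, 0.131 and 0.176 CPM in WT (3.44 ± 0.35, adjusted p = 4.68e-05). The groups did not overlap, and K844 was the highest WT kidney for H2-Aa. Cd74, the invariant chain, had 196, 158, 193 and 167 CPM in KO, against 60.5, 58, 119 and 58.2 CPM in WT (1.27 ± 0.30, adjusted p = 0.0171), and without K587, K597, K645 or K877 the call was lost, at log2 differences of 1.16 to 1.22. Of 22 class I genes 9 rose and none fell. Rises were 3 without K587, K588, K597, K645 or K877 and 10 without K596 or K844, 2 on the TPM scale, 4 with the mitochondrial covariate and 8 in the fit of 8. The stable ones were H2-Q7, H2-Q6 and H2-K1, at log2 differences of 2.02, 2.1 and 1.28, but only 60.8, 48.2 and 77.2% of their 31-base words were unique to the gene, so reads can be split among near-identical relatives and with strain differences. B2m, the shared light chain, did not pass (0.69 ± 0.35, adjusted p = 0.145).

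Interferon-stimulated genes rose in number without a fall. Of 46 interferon response genes, 25 rose, 12 stably, with a median of 0.96. Rises were 12 without K645 and 29 without K596, 2 on the TPM scale, 8 with the mitochondrial covariate and 24 in the fit of 8. Rsad2, viperin, an antiviral enzyme, had 32.7, 25.3, 29.3 and 21.4 CPM in the KO diabetic kidneys, against 11.9, 12.5, 13.1 and 13.4 CPM in the WT diabetic kidneys (1.1 ± 0.15, adjusted p = 0.00103). Ifitm3, a membrane protein that blocks virus entry and the most abundant member, had 54.4, 49.3, 58.9 and 25.4 CPM in KO, against 14, 12.8, 24.5 and 14.7 CPM in WT (1.51 ± 0.30, adjusted p = 0.00746). Mx1, an antiviral GTPase, had 1.64, 1.41, 1.57 and 0.605 CPM in KO, against 0.18, 0.142, 0.218 and 0.264 CPM in WT (2.66 ± 0.47, adjusted p = 0.00443). None overlapped, although K596, the lowest KO kidney for Ifitm3, came within 1 CPM of K844. Irf7, the factor that amplifies the response, was picked after its values were seen and had 16.4, 15.7, 17.9 and 8.51 CPM in KO, against 3.32, 3.3, 5.33 and 2.16 CPM in WT (2.05 ± 0.41, adjusted p = 0.00757).

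Promoters of 3 of these genes are shown because many interferon and class II genes rose and their control elements are known. Each line is 300 bases of RefSeq sequence, GRCm38.p6, read 5′ to 3′ on the minus strand from 250 bases before the start to 50 after it, with matches in capitals. The Rsad2 window is chr12:26456403-26456702, the Ifitm3 window chr7:141010695-141010994 and the H2-Aa window chr17:34287774-34288073.
Rsad2: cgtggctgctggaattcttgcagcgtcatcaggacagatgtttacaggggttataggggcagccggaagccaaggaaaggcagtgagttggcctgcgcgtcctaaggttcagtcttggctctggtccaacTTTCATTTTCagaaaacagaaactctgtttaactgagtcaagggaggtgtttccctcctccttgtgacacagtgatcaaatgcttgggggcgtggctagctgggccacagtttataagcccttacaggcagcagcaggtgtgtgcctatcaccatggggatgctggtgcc
Ifitm3: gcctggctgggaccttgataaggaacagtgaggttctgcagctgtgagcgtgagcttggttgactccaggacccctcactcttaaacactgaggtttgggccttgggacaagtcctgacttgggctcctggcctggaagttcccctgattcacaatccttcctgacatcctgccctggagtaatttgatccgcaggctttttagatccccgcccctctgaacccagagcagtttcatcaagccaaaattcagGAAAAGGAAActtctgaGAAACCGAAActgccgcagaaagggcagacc
H2-Aa: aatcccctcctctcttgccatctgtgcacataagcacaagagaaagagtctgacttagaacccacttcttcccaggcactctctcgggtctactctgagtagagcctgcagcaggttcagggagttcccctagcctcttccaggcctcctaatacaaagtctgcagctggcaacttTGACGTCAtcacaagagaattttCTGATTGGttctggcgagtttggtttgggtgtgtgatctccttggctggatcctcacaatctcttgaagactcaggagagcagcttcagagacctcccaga
The interferon-stimulated response element was searched as GAAA, any 2 bases and again GAAA, on both strands. Rsad2 holds it as its reverse complement beginning 120 bases before the start, and Ifitm3 holds it at bases 2 and 19 after the start; the pair does not overlap. In H2-Aa the capitals are a cyclic AMP response element, TGACGTCA, beginning 74 bases before the start, and a Y box, CTGATTGG, beginning 51 before it. The response element occurred in 3.44% of all 32851 windows, the cyclic AMP element in 1.79% and the Y box in 4.10%. Of 32 interferon list members with a window, 20 held the response element; 10 of these 20 rose, as did 5 of the 12 without it. Of 13 class II genes with a window, 4 held the Y box (H2-Aa, H2-Eb1, H2-Eb2 and H2-Oa), and 3 of them rose, as did 5 of the other 9.

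Part of the genes of the vessel wall and the interstitium rose too. Of 15 mural cell genes 8 rose and 1 fell, 4 of the rises stably. Rises were 4 without K597 or K645 and 10 without K596, 2 on the TPM scale, 3 with the mitochondrial covariate and 7 in the fit of 8. Pdgfrb, the growth factor receptor of pericytes and fibroblasts, had 35.3, 29.3, 33.7 and 27.1 CPM in KO, against 16.5, 15.5, 17.7 and 17.5 CPM in WT (0.90 ± 0.15, adjusted p = 0.00339), and Des, desmin, had 23.8, 19.1, 20.8 and 12.5 CPM in KO, against 6.56, 6.32, 9.43 and 6.51 CPM in WT (1.4 ± 0.21, adjusted p = 0.00182). Of 41 fibrosis and matrix genes 17 rose, 6 stably, and 2 fell, with a median of 0.79, or 0.35 on the TPM scale. Rises were 6 without K645 and 23 without K596, 2 on the TPM scale, 7 with the mitochondrial covariate and 21 in the fit of 8. The summed level of the list overlapped, at 2753, 2479, 2667 and 3066 CPM in KO and 2876, 3097, 2601 and 2907 CPM in WT. Col1a1, a chain of type I collagen, had 29, 26.4, 32.3 and 15.5 CPM in KO, against 7.27, 9.06, 10.7 and 9.15 CPM in WT (1.51 ± 0.22, adjusted p = 0.0015), and Col1a2, the other chain, had 55.6, 50.1, 46.2 and 34.6 CPM in KO, against 19.6, 22.5, 23 and 23.9 CPM in WT (1.07 ± 0.18, adjusted p = 0.00385). K596 was the lowest KO kidney for all 4, and still lay above every WT kidney. Spp1, osteopontin, the most abundant gene of the list, did not pass, at −0.68 (adjusted p = 0.358). Of 24 endothelial genes 10 rose and none fell, 1 stably. Rises were 1 without K645 and 15 without K596, 0 on the TPM scale, 0 with the mitochondrial covariate and 9 in the fit of 8. The stable gene was Robo4, a guidance receptor of endothelium, with 20.7, 17, 15.3 and 11.8 CPM in KO, against 7.86, 7.41, 8.16 and 9.51 CPM in WT (0.98 ± 0.21, adjusted p = 0.010). In the tubular injury list 5 of 26 rose and 1 fell. Its stable gene was Tmsb10, an actin-binding thymosin, with 70.1, 70.1, 84.6 and 24 CPM in KO, against 10.6, 12.4, 21.5 and 13.2 CPM in WT (2.11 ± 0.38, adjusted p = 0.00491). Rises on the tubular injury list were 1 without K645 and 9 without K596. They were 1 on the TPM scale, 1 with the mitochondrial covariate and 6 in the fit of 8. Basement membrane genes gave 3 rises among 22, none stable. Their rises were 0 without K587, K588, K597, K645 or K877 and 6 without K596. They were 0 on the TPM scale, 0 with the mitochondrial covariate and 2 in the fit of 8.

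**Figure D3:**
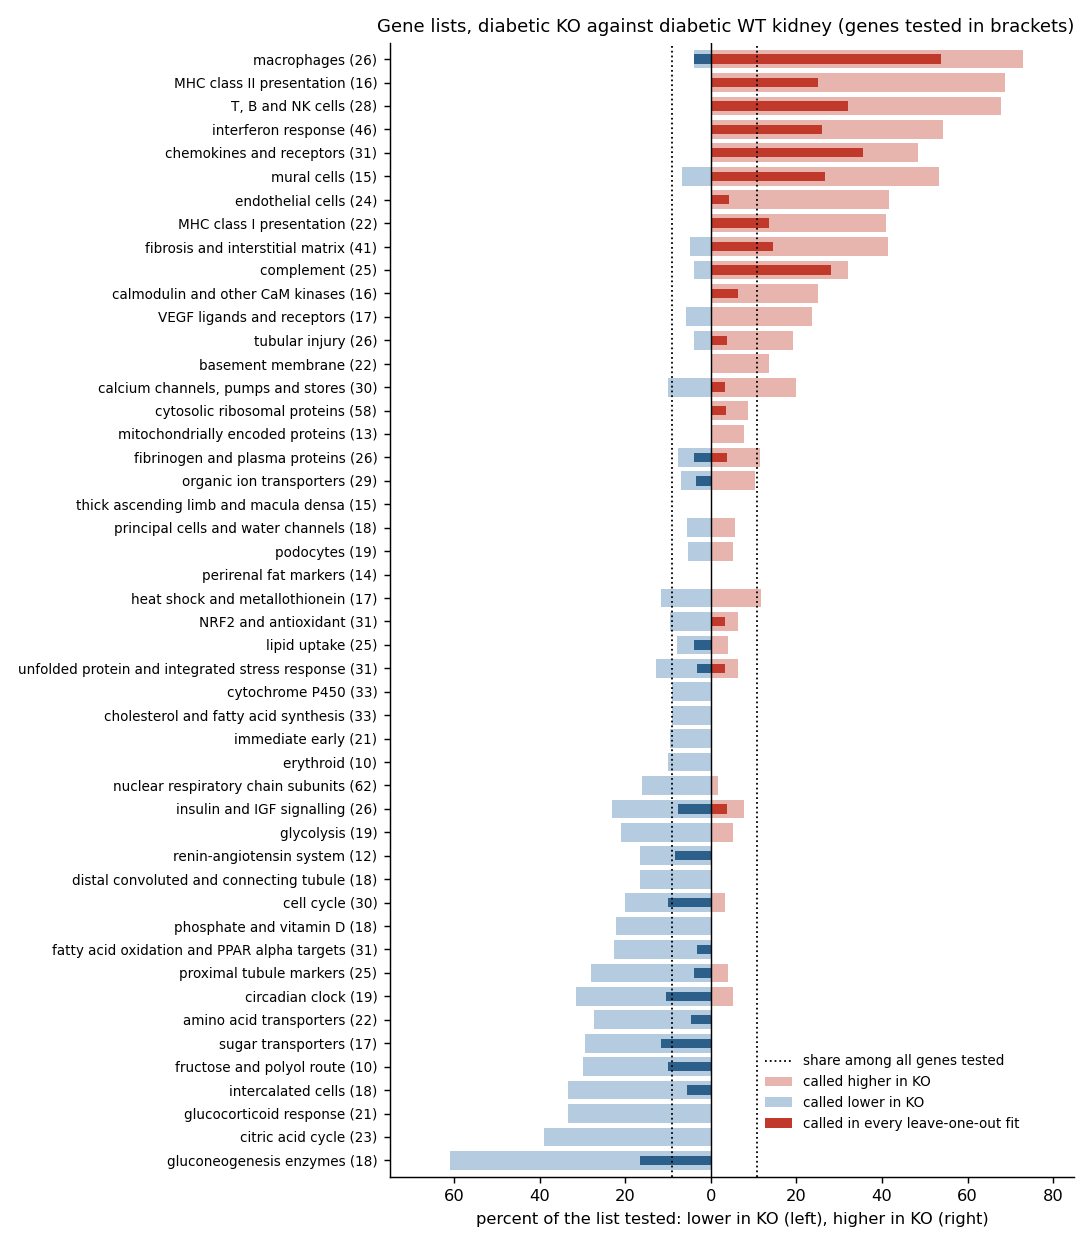
Percent of the genes tested in each list (lists with at least 10 tested) that were higher (red) or lower (blue) in KO than in WT diabetic kidney, with the darker inner bars for calls held in every leave-one-out fit and dotted lines at the shares among all genes tested, 10.7 and 8.99%. Immune, interferon, matrix and mural lists extend to the right, and gluconeogenesis, citric acid cycle and glucocorticoid lists to the left.

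Several groups gave calls near or under the share of all genes. No perirenal fat marker of 14 passed. Among 33 cytochrome P450 genes 3 fell, among 33 genes of cholesterol and fatty acid synthesis 3 fell, and among 31 antioxidant genes 2 rose and 3 fell. Among 21 immediate early genes 2 fell and none rose. Unlike these, the VEGF list had 4 rises among 17 genes, above the share of rises among all genes, and 1 fall, none stable. Rises were 0 without K645 and 5 without K596, 0 on the TPM scale, 1 with the mitochondrial covariate and 4 in the fit of 8. Vegfa, the main VEGF ligand of podocytes and tubules, had 189, 200.3, 199 and 199 CPM in KO, against 190.5, 195, 204 and 202 CPM in WT (−0.01 ± 0.11, adjusted p = 0.966), and the groups lay within the same range.

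Calcium genes gave more rises than the share of all genes, few of them stable. Of 30 genes of calcium handling 6 rose and 3 fell. Rises were 1 without K587 or K597 and 10 without K596, 0 on the TPM scale, 2 with the mitochondrial covariate and 2 in the fit of 8. The stable one was Cacna1c, the pore of the L-type calcium channel of smooth muscle, with 3.59, 2.7, 3.57 and 1.82 CPM in KO, against 0.943, 0.519, 1.09 and 1.19 CPM in WT (1.63 ± 0.31, adjusted p = 0.00656). Of 16 calmodulin and other CaM kinase genes 4 rose, 1 stably. Rises were 1 without K587, K588, K597, K645 or K877 and 9 without K596, 1 on the TPM scale, 1 with the mitochondrial covariate and 3 in the fit of 8. That was Mylk, the myosin light chain kinase of smooth muscle, with 162, 165, 148 and 101 CPM in KO, against 62.9, 54.5, 69.5 and 62.1 CPM in WT (1.21 ± 0.19, adjusted p = 0.0024). Camkk2, the kinase upstream of CaMKI and CaMKIV, had 16.5, 16.4, 22 and 14.8 CPM in KO, against 11.7, 11.5, 15.3 and 11.2 CPM in WT (0.49 ± 0.13, adjusted p = 0.0267); it reversed to −0.015 on the log2(TPM + 1) scale and without K587, K588, K591, K597, K645 or K877 the call was lost, at log2 differences of 0.36 to 0.51.

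The levels of these groups were then set beside the kidneys of non-diabetic animals. The gluconeogenesis list summed to 4466, 5098, 5476 and 9827 CPM in the KO diabetic kidneys, 11706, 12658, 11679 and 13414 CPM in the WT diabetic kidneys and 5372 to 8488 CPM and 5453 to 8397 CPM in the non-diabetic KO and WT kidneys. K587, K588 and K591 thus lay under or just inside the lower end of the non-diabetic range, K596 lay above it, and all WT diabetic kidneys lay above it. The sugar transporter list summed to 1019, 1048, 1104 and 1743 CPM in KO and 2319, 2595, 1979.5 and 2316 CPM in WT diabetic kidneys, and to 903 to 1292 CPM in the 8 non-diabetic kidneys. The cell cycle list summed to 179, 179.8, 191 and 313 CPM in KO and 579, 624, 386 and 442 CPM in WT diabetic kidneys, and to 191 to 255 CPM in the 8 non-diabetic ones. Ccnd1 alone made up most of this sum in the 4 WT diabetic kidneys and in K596, where it had 203 CPM. In all 3 lists the 4 WT diabetic kidneys lay above the range of the non-diabetic kidneys, and K596 lay above it too.

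Class II, lymphocyte and interferon lists stood lowest in the WT diabetic kidneys. Class II genes summed to 479, 415, 506 and 420.2 CPM in KO and 164, 151, 302 and 140.2 CPM in WT diabetic kidneys, and to 314 to 689.7 CPM in the non-diabetic kidneys. T, B and NK cell genes summed to 47.3 to 128 CPM in the non-diabetic kidneys, a range that takes in the 4 KO diabetic kidneys and lies above the 4 WT diabetic kidneys. Interferon response genes summed to 424 CPM or more in KO and 280.0 to 344 CPM in WT diabetic kidneys, and to 396 to 849 CPM in the non-diabetic ones, a range that takes in the KO diabetic kidneys. Other immune lists did not show this. The macrophage sum, to which Apoe contributes most, overlapped at 746, 1326, 554 and 527 CPM in KO and 561, 402, 878 and 643 CPM in WT diabetic kidneys, against 274 to 635 CPM in the non-diabetic ones. Chemokine and receptor genes summed to 276 to 336 CPM in KO and 240.0 to 254 CPM in WT diabetic kidneys, and the WT values lay inside the non-diabetic range of 221 to 373 CPM. Class I genes, at 1646, 1714, 1813 and 1634 CPM in WT diabetic kidneys, also lay inside theirs, 1615 to 2314 CPM. Among single genes, G6pc was at 134 to 314 CPM, Ccnd1 at 75.7 to 135 CPM, H2-Aa at 60.4 to 119 CPM and Cd79a at 0.491 to 0.995 CPM in the 8 non-diabetic kidneys. The 4 groups share no animal, and the difference of the genotype differences is tested further on.

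**Figure D4:**
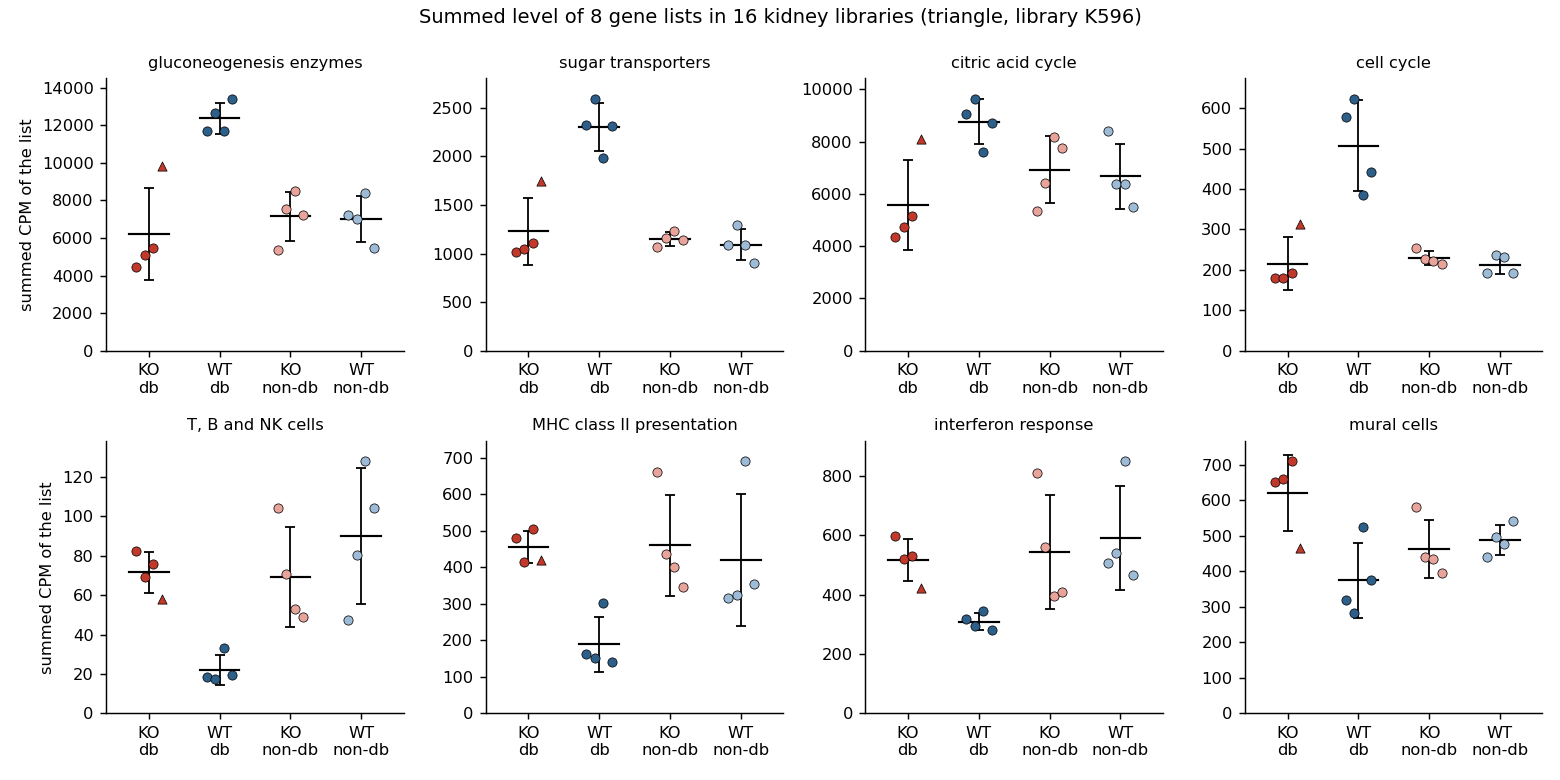
Summed CPM of 8 gene lists in each of the 16 kidney libraries, with the groups from left to right KO diabetic, WT diabetic, KO non-diabetic and WT non-diabetic, 1 point per library (K596 is the triangle) and the mean ± SD of each group of 4. For gluconeogenesis the WT diabetic kidneys lie above the other 3 groups, and for the genes of T, B and NK cells they lie under the other 3. The cell cycle sum is mostly Ccnd1 in the WT diabetic kidneys and in K596.

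The largest changes outside these lists were taken by a fixed rule: stable, non-overlapping protein-coding genes of at least 5 CPM in a group. Among rises, Bik, a pro-apoptotic BH3 protein, had 8.65, 8.56, 10.3 and 4.45 CPM in KO, against 0.674, 0.802, 0.611 and 0.704 CPM in WT (3.51 ± 0.25, adjusted p = 4.02e-07), and Cd52, a surface glycoprotein of lymphocytes, had 9.82, 8.52, 10.7 and 6.22 CPM in KO, against 1.3, 1.42, 2.53 and 1.23 CPM in WT (2.44 ± 0.35, adjusted p = 0.00134). Sfrp2, a secreted modulator of Wnt signalling, had 15.7, 15.7, 14.8 and 6.57 CPM in KO, against 1.84, 1.7, 4.93 and 2.02 CPM in WT (2.32 ± 0.48, adjusted p = 0.00947). Rgs6, Syt11 and Cd72 differed by 2.28, 1.51 and 2.27 (adjusted p = 6.60e-05, 4.68e-05 and 0.00439). Among falls, Tm4sf5, a tetraspanin-like membrane protein, had 0.0432, 0.0856, 0.121 and 0 CPM in KO, against 51.2, 61.7, 42.9 and 43.4 CPM in WT (−9.6 ± 0.50, adjusted p = 2.16e-08), close to absence in all KO kidneys. Fgg, the gamma chain of fibrinogen, had 1.73, 1.41, 1.81 and 2.98 CPM in KO, against 15.9, 13.1, 8.77 and 11.6 CPM in WT (−2.63 ± 0.31, adjusted p = 0.000199), and Bbox1, the last enzyme of carnitine synthesis, had 1.43, 1.41, 2.36 and 1.82 CPM in KO, against 6.42, 5.19, 11.2 and 10.2 CPM in WT (−2.24 ± 0.47, adjusted p = 0.00965). Nepn, Agmo and Mreg fell by 2.09, 1.99 and 1.82 on the log2 scale. In all of these falls the KO kidneys lay under the WT kidneys. Fibrinogen and plasma protein genes, counted as a further list, gave 3 rises and 2 falls among 26, shares near those of all genes. Of these, 1 rise and 1 fall were stable, and the median of the list was 0.60.

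Other large differences belong to genes with near-identical copies, where the counting can move reads between them, and are uncertain. Tpm3-rs7 had 0.0432, 0.128, 0.0604 and 0.13 CPM in KO, against 34.7, 69.6, 63.6 and 71.6 CPM in WT (−9.25 ± 0.39, adjusted p = 1.86e-09), with 21.4% of its 31-base words unique. Summed with its parent Tpm3, which was picked after its values were seen, the level was 68.4 ± 18.8 CPM in KO and 86.2 ± 6.09 CPM in WT (SD, n = 4 each), while the copy took 0.0784 to 0.235% of the sum in KO and 37.5 to 82.7% in WT. Hmga1b and its parent Hmga1 (picked likewise) together gave 20.8 ± 7.26 CPM in KO and 23.1 ± 0.176 CPM in WT, and the copy held up to 1.32% of the sum in KO and 44.4 to 91.1% in WT. The ribosomal gene Rps2 rose by 1.15 ± 0.19, adjusted p = 0.00269, but with its processed copy Rps2-ps10 (picked likewise) the sum was 514 ± 82.8 CPM in KO and 456 ± 99.9 CPM in WT. Mettl7a2, Methig1, Ugt2b38, Selenbp2 and Rpl3, with 27.8, 38, 47.1, 40.7 and 62.5% unique words, are of the same kind.

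Genes around Camk2d, on chromosome 3, were examined because a knockout can carry flanking sequence of another strain. Of the genes tested within 1, 2, 5 and 10 Mb, 33.3% (5 of 15), 45.8% (11 of 24), 29.1% (23 of 79) and 22.7% (29 of 128) were called, against 20.4% of all other genes of that chromosome and 19.7% among all genes. The nearest called were the gene models Gm42514 and Gm43750, 0.0257 and 0.288 Mb away, at log2 differences of 2.61 and 1.64, neither stable. The nearest stable call was Arsj, an arylsulfatase, 0.319 Mb before Camk2d, with 0.649, 0.856, 0.725 and 0.951 CPM in KO, against 0.0449, 0.0472, 0.0873 and 0 CPM in WT (3.99 ± 0.61, adjusted p = 0.00185). Alpk1, the kinase that senses bacterial ADP-heptose, lies 1.0 Mb after it and had 8.56, 8.56, 7.13 and 4.02 CPM in KO, against 1.48, 1.13, 2.05 and 1.36 CPM in WT (2.22 ± 0.37, adjusted p = 0.00269). Ap1ar, a regulator of vesicle transport by AP-1, lies 1.10 Mb after it and had 16.6, 18.2, 17.7 and 30.9 CPM in KO, against 48.1, 49.6, 31.3 and 39.8 CPM in WT (−1.01 ± 0.21, adjusted p = 0.00943); K596 and K844 lay close together at 30.9 and 31.3 CPM. Stable calls were also counted in windows of 10 Mb over the genome, among protein-coding genes with at least 90% unique 31-base words and in windows with at least 10 of them; 3.29% of all 11382 such genes were stable. The 2 windows with the most stable calls are described here, although smaller windows had as high or higher percentages, up to 2 of 10 on chromosome 15 from 20 to 30 Mb. On chromosome 11 from 70 to 80 Mb, 15 of 145 were stable (10.3%), among them Tm4sf5, Zmynd15, Ggt6, Cxcl16, Alox15 and, picked after their values were seen, Slc16a11 and Mgl2. On chromosome 17 from 30 to 40 Mb, 12 of 123 were stable (9.76%), a window at the MHC that holds Glo1. Stable or not, 24 of the 123 were called (19.5%), near the 19.7% among all genes. In the chromosome 11 window 59 of 145 were called (40.7%). Between non-diabetic KO and WT kidneys, 1 gene of the chromosome 17 window and 5 of the chromosome 11 window were called. The MHC pseudogene H2-Ea-ps, also picked after its values were seen, had 0.0865, 0.0856, 0 and 0 CPM in KO, against 8.44, 7.69, 30.2 and 14.1 CPM in WT (−8.19 ± 0.72, adjusted p = 6.54e-06), and it differed by −10.16 between non-diabetic KO and WT kidneys. Whether strain sequence linked to the knockout has a part in the class II and chromosome 11 results was not tested.

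**Figure D5:**
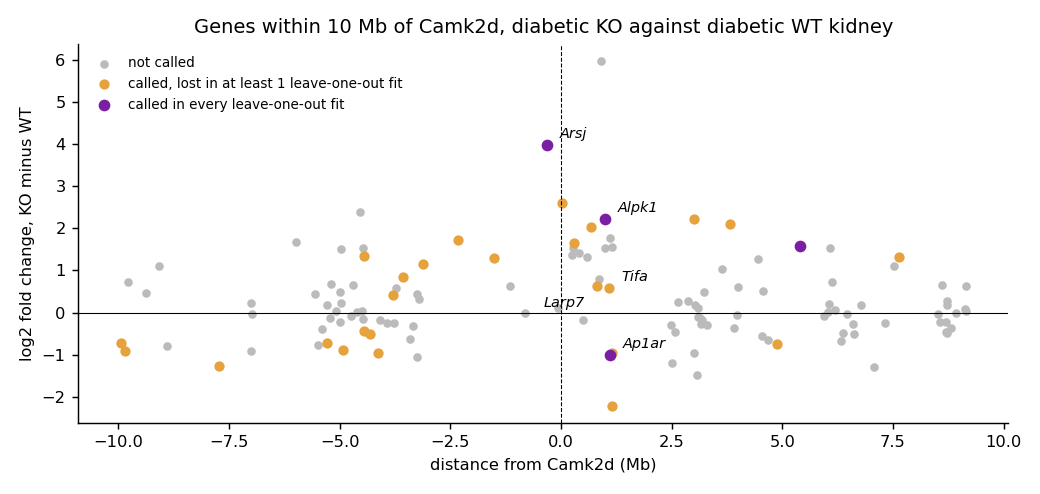
Log2 difference (KO minus WT diabetic kidney) of each gene tested within 10 Mb of Camk2d against its distance in Mb, with called and stable genes coloured. Within 2 Mb, 11 of 24 genes were called, Arsj at 3.99 and Alpk1 at 2.22 among them.

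The genotype comparison without diabetes gave far fewer calls. Between non-diabetic KO and WT kidneys 79 genes were called (0.435%), 26 higher (0.143%) and 53 lower (0.292%). Of these 63 were called in the diabetic kidney, 79.7% of the non-diabetic calls and 1.76% of the diabetic ones, and all 63 had the same sign in both. Camk2d itself differed by −5.85 ± 0.34, adjusted p = 6.33e-08 there, Tm4sf5 by −8.01 ± 0.49, adjusted p = 9.11e-08, Glo1 by −1.38 ± 0.18, adjusted p = 0.000812 and Bik by 1.51 ± 0.23, adjusted p = 0.00392. Slc16a11 and Osr1, picked after their values were seen, differed by −1.02 and −1.6 in non-diabetic kidneys and by −1.01 and −1.59 in diabetic ones. Selected genes of glucose output, the cell cycle and immunity did not pass there. G6pc differed by 0.26 ± 0.32, adjusted p = 0.997 and Ccnd1 by 0.27 ± 0.32, adjusted p = 0.997. H2-Aa differed by 0.12 ± 0.29, adjusted p = 0.997 and Rsad2 by −0.01 ± 0.15, adjusted p = 0.999. How many members of each list were called there was not counted. The list medians in the non-diabetic kidneys were 0.04 for gluconeogenesis, 0.25 for macrophages and 0.11 for interferon response.

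Whether the genotype difference itself differed with diabetes was tested as an interaction, and no gene passed in the edgeR fit of all 16 kidneys. The smallest adjusted p was 0.0665, and 5301 genes were under 0.05 before adjustment; DESeq2 called 1567, and the edgeR fit without K596 called 5471. The interaction estimates were −1.71 ± 0.45, adjusted p = 0.0755 for G6pc, −2.06 ± 0.46, adjusted p = 0.0714 for Ccnd1, 1.5 ± 0.41, adjusted p = 0.0772 for H2-Aa, 3.64 ± 0.67, adjusted p = 0.0665 for Cd79a and 1.11 ± 0.21, adjusted p = 0.0665 for Rsad2. The larger genotype differences of the diabetic kidney are thus not shown, in this fit, to differ from those of the non-diabetic kidney.

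The diabetic retina gave the same genotype contrast in another organ, with 3 KO retinas and 4 WT retinas. By their numbers, the KO retinas are from the animals of K587, K588 and K591, and the WT retina R844 is from the animal of K844. There 374 of 20979 genes tested were called (1.78%), 213 higher (1.02%) and 161 lower (0.767%), and 74 of them were called in the diabetic kidney, 19.8% of the retinal and 2.07% of the kidney calls, 56 with the same sign. Among all genes tested in kidney, 19.7% were called in diabetic kidney. The 2 shares have unlike bases, since the 374 retinal calls can include genes not tested in kidney. Camk2d had 3.32, 3.71 and 3.41 CPM in KO retinas, against 343, 320.4, 322 and 316 CPM in WT retinas (−6.54 ± 0.10, adjusted p = 9.73e-16). Foxo3, Rsad2 and Col1a1, which changed in kidney, differed in retina by −0.15 ± 0.08, adjusted p = 0.364, 1.19 ± 0.33, adjusted p = 0.0832 and 0.22 ± 0.14, adjusted p = 0.477. Eci1, lower in KO kidney, was higher in KO retina (0.48 ± 0.06, adjusted p = 0.00135), and Cd52, higher in KO kidney, was lower in KO retina (−2.85 ± 0.62, adjusted p = 0.0312). The organs were fitted separately, and the difference between them was not tested.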

How the data were processed

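Kidney and retina RNA libraries were grouped by their labels. The authors deposited 1 table per library with kallisto's estimated counts and TPM values per gene; the tools and build named in the submitters' processing notes are Trim Galore 0.6.4, kallisto (its version given as 0.4.6) and GRCm38.p6. Of 55385 gene identifiers, 55144 matched the GENCODE annotation without version. The deposited expected counts, of which 35.0% were not whole, were rounded and fitted with edgeR 4.0.16 (R 4.3.3) by quasi-likelihood with TMM scaling and filterByExpr, over 16 kidney libraries in 4 groups and separately over 14 retinas; a call is an adjusted p under 0.05. Counts do not separate strands as far as the sources used here say, and overlapping genes can share reads. The deposited TPM, which sums to a fixed total and keeps no depth, was used for markers and for limma 3.58.1 as an alternative. DESeq2 1.42.0 and the other alternatives are given in the closing section. No 2 libraries held identical values. On simulated counts with changes of 1 and 2 log2 units in this comparison, the edgeR fit recovered 66 and 97% of changes, with 4 false calls over 17819 genes. These values come from 1 draw, and another draw differed by several points. The simulated counts held no library set apart as K596 is and no shared shift in composition. The number of false calls therefore does not carry over to the real comparison.

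Genes were named by a fixed rule: the CaMKII genes, Lepr and Leprot; the 12 largest stable rises and falls of at least 5 CPM without overlap; the 10 smallest p-values under the same conditions; in each list the 4 stable members of smallest p, or the 2 of smallest p where fewer were stable, and the most abundant member; and the 5 called genes nearest to Camk2d. Some genes that this rule names are not reported here. Genes outside the rule are said to be picked after their values were seen. Members and gene lists were chosen with earlier results of these data known. The biological coefficient of variation had a median of 0.235 (kidney) and 0.106 (retina).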

Additional observations from a re-analysis of the deposited data

Results flagged for a closer look

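In each group of 4 diabetic kidneys, a library was singled out when its gap to the nearest of the others exceeded Dixon's 95% critical value as a share of the range of the group, for the genes named here and the lists whose sums are printed. Of 246 such groups 35 held such a library, where chance gives about 1 in 20. Among the KO kidneys K596 was high, toward WT, for Slc6a19 at 278 against 101 to 110.0 CPM, Atp6v0a4 at 197 against 72.2 to 78.8 CPM and Herpud1 at 320.0 against 151 to 160.3 CPM. The same library gave Ccnd1 at 203 against 66.5 to 79.6 CPM, Mcm4 at 4.62 against 2.96 to 3.24 CPM and Ap1ar at 30.9 against 16.6 to 18.2 CPM. It also gave Lipa at 219 against 102 to 111 CPM. K596 was low among KO for Sfrp2 at 6.57 against 14.8 to 15.7 CPM and Sag at 1.6 against 3.89 to 4.32 CPM. Its list sums stood apart for sugar transporters at 1743 against 1019 to 1104 CPM and cell cycle at 313 against 179 to 191 CPM. Most of the cell cycle sum of K596 was Ccnd1. K587 stood apart among KO for Rgs6 at 8.0 against 6.65 to 6.85 CPM. K587 stood apart among KO for Ugt2b38 at 0.0865 CPM against 0 in the others. K587 stood apart among KO for Vegfa at 189 against 199 to 200.3 CPM.

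Among the WT kidneys K844 was high, toward KO, for the immune genes Cd52 at 2.53 against 1.23 to 1.42 CPM, Fcer1g at 5.15 against 2.11 to 2.55 CPM and H2-Aa at 45.8 against 19.8 to 21.8 CPM. Of the same kind were Cd74 at 119 against 58 to 60.5 CPM, B2m at 283 against 171 to 182 CPM and Ifitm3 at 24.5 against 12.8 to 14.7 CPM. K844 was also high for C1qb at 10.7 against 4.94 to 5.9 CPM, C1qa at 8.99 against 4.0 to 4.81 CPM and C1qc at 7.2 against 3.68 to 4.13 CPM. The sums of 2 immune lists did the same, with T, B and NK cells at 33.3 against 17.4 to 19.6 CPM and MHC class II presentation at 302 against 140.2 to 164 CPM. Outside immunity it was high for Mettl7a2 at 0.306 CPM against 0 in the others, Sfrp2 at 4.93 against 1.7 to 2.02 CPM and Camkk2 at 15.3 against 11.2 to 11.7 CPM. Beyond these it gave Des at 9.43 against 6.32 to 6.56 CPM. K597 stood apart among WT for Camk2b at 2.25 against 0.0437 to 0.0472 CPM and Tpm3 at 57.8 against 14.4 to 18.4 CPM. K645 stood apart among WT for Camk2a at 0.519 against 0.704 to 0.742 CPM, Hmga1b at 10.2 against 20 to 21.1 CPM, Hmga1 at 12.7 against 2.07 to 3.32 CPM and the mitochondrial share of counts at 26.1 against 24.5 to 24.8%.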

How the results depend on the processing

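No paired analysis was possible because the diabetic KO and WT kidneys come from different animals and share no replicate number. The 3573 calls in diabetic kidney became 2348 with no expression filter, 416, 5.8e+02 (292 higher, 290 lower) and 271 in limma on log2(TPM + 1), log2(TPM + 0.1) and the version filtered at 1 TPM, 5613 with a sex covariate, 502 with the mitochondrial share as a covariate, 7358 without K591 and K596, and 1651 in the fit of the 8 diabetic libraries, while RLE scaling, DESeq2 and removal of mitochondrial genes kept the count within 1.5 times (3826, 5048 and 3814). Leaving out 1 library gave 718 (without K645) to 7730 (without K596), with 725, 763, 929, 966, 1301 and 4722 without K597, K587, K588, K877, K591 and K844. The 79 non-diabetic calls became 171 in DESeq2 and 52 and 43 in limma on log2(TPM + 1), unfiltered and filtered, and 51 to 84 with 1 library left out. The interaction count of 0 became 24 with no filter, 1567 in DESeq2, 2, 1 and 2 in the 3 limma versions, 1194 with a sex covariate, 5482 without K591 and K596, and 0 to 5471 with 1 library left out. The 374 retinal calls became 599 with no filter, 693 in DESeq2, 180, 152 and 102 in the limma versions, and 91 to 1120 with 1 library left out, the lowest without R591 and the highest without R844. Camkk2 was at −0.015, −0.018 and −0.015 in the limma versions, against 0.49 in the count fit. The mitochondrial difference was 4.48 points as a share of TPM and 3.52 to 11.2 points with 1 library left out. The causes were not tested. Depth limits genes of a few counts, such as the lymphocyte genes in WT.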

Other observations

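Some single genes outside the lists were picked after their values were seen; no list of their kind was counted, so nothing follows for the groups they belong to. Lgmn, the asparaginyl protease legumain of the proximal tubule, had 163, 165, 217 and 438 CPM in KO, against 725, 755, 430.3 and 586 CPM in WT (−1.34 ± 0.30, adjusted p = 0.0128), and Lipa, the lysosomal acid lipase, had 111, 108, 102 and 219 CPM in KO, against 318, 383, 211 and 279 CPM in WT (−1.14 ± 0.25, adjusted p = 0.0116). K596 lay just above K844 for both. Ctsf, a cysteine cathepsin, differed by −1.06 ± 0.23, adjusted p = 0.0112. Asl, argininosuccinate lyase, had 137, 162, 166 and 159.6 CPM in KO, against 307, 313, 246 and 236 CPM in WT (−0.82 ± 0.18, adjusted p = 0.0121), and Prodh, proline dehydrogenase, had 269, 307, 199.9 and 263 CPM in KO, against 417, 460.0, 447 and 396 CPM in WT (−0.73 ± 0.17, adjusted p = 0.0136), without overlap. Ide, the insulin-degrading enzyme, had 34.9, 33.1, 45.5 and 64.8 CPM in KO, against 137, 157, 77.1 and 122 CPM in WT (−1.46 ± 0.26, adjusted p = 0.00413).

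Also picked in this way were 2 genes that are expressed in dendritic cells. Clec9a, a receptor for dead cells on cross-presenting dendritic cells, had 3.33, 2.06, 2.96 and 1.82 CPM in KO, against 0.763, 0.849, 1.18 and 0.792 CPM in WT (1.49 ± 0.31, adjusted p = 0.00943). Mgl2, a lectin of macrophages and dendritic cells, had 2.9, 3.13, 3.93 and 1.17 CPM in KO, against 0.0898, 0.142, 0.175 and 0.176 CPM in WT (4.2 ± 0.60, adjusted p = 0.00126). The KO kidneys lay above the WT kidneys for both, and as picked genes they add no independent support to the lists.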
